A study of Mus musculus with 12 samples.

Results

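The response of wild-type mouse macrophages to interferon-gamma (IFN-γ) was measured across all expressed genes, as the 2 libraries of WT bone marrow-derived macrophages treated with IFN-γ at 100 U/mL for 24 h against the 2 libraries of untreated WT macrophages. These are 4 of the 12 libraries of the series. The other 8 are WT macrophages given IL-4 at 20 ng/mL for 24 h and macrophages labelled CKO that were treated with IFN-γ, treated with IL-4 or left untreated, with 2 libraries in each group. The labels give the WT libraries no other allele or agent, and no strain, age or sex. Nor do they say that replicate libraries stem from different animals or cultures, so the p-values rest on library-to-library spread that may be technical.

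IFN-γ is the cytokine by which T cells and natural killer cells activate macrophages. It binds the receptor pair IFNGR1 and IFNGR2, which activates the kinases JAK1 and JAK2 and, through them, transcription factors that bind gamma-activated sites (GAS) in DNA. The transcription factor IRF1 is induced early, and IRF proteins bind interferon-stimulated response elements (ISRE). In macrophages the cytokine is known for antigen presentation, for killing of intracellular microbes and for the guanylate-binding proteins and immunity-related GTPases that act on the vacuoles holding such microbes.

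The deposited table holds raw counts for 48440 mouse genes. The IFN-γ libraries held 24668799 and 28826018 counts and the untreated libraries 28214785 and 28509822, within the 21287725 to 32717379 of all 12. After a filter on low counts, 16292 genes were tested. Levels are given as CPM, counts scaled to the effective size of each library, which are not divided by gene length, so levels are compared between groups and not between genes. Of 15 macrophage markers, 4 rose after IFN-γ, 2 fell and 9 were not called (adjusted p under 0.05). Over all genes tested, 12.4% rose and 11.8% fell. Csf1r, the receptor for the macrophage growth factor CSF-1, was not called. It had 1193 and 1063 CPM in the IFN-γ libraries, against 994 and 909 CPM in the untreated libraries. Aif1 was among those that rose, by 3.37 on the log2 scale, and Cd14 among those that fell, by 2.52. The summed level of 15 macrophage markers was 14540 and 14560 CPM in the IFN-γ libraries, against 20237 and 18985 CPM in the untreated libraries, and Lyz2 held that difference. Of 10 T and NK cell markers, Cd3e, Cd3g, Ncr1, Gzmb, Prf1 and Ifng had no count in any of the 4 libraries. Cd4, the only 1 of the 10 that was tested, fell by 2.17 on the log2 scale (adjusted p = 0.0020). It had 0.58 and 0.648 CPM in the IFN-γ libraries, against 2.62 and 2.93 CPM in the untreated libraries. The 14 neutrophil markers tested summed to 136 and 146 CPM in the IFN-γ libraries, against 259 and 253 CPM in the untreated libraries, and Mmp8 held that difference. The 6 markers of megakaryocytes and endothelium tested summed to 131 and 157 CPM in the IFN-γ libraries, against 238 and 281 CPM in the untreated libraries. In these bulk libraries, fewer cells of a type and less RNA per cell cannot be told apart. The ribosomal-RNA-derived gene Gm42418 took 0.753% and 0.105% of counts in the IFN-γ libraries and 1.05% and 0.0867% in the untreated libraries, so that replicate 1 was high in both groups.

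IFN-γ moved about as many genes up as down, but the increases were far larger. Of the 16292 genes tested, 3935 (24.2%) differed at an adjusted p under 0.05, of which 2018 (12.4%) rose and 1917 (11.8%) fell. The median log2 fold change over all genes tested was 0.00. The library scaling (TMM) centres the bulk of genes near no change, so this median and the balance of rises and falls depend on it. At least 2-fold changes were found for 1013 genes that rose (6.22%) and 739 that fell (4.54%). At least 8-fold changes were found for 293 genes that rose (1.8%) and 69 that fell (0.424%). At least 4-fold changes were found for 496 (3.04%) and 217 (1.33%). The genes that rose at least 4-fold took 6.25% and 6.31% of all CPM in the IFN-γ libraries, against 0.581% and 0.555% in the untreated libraries. In all 3935 genes called, the 2 groups did not overlap, which over all genes tested was so for 29.3% with higher and 30.6% with lower values after IFN-γ. A lack of overlap in a called gene named below is thus a description and not further support. Leaving out untreated library 1 left 2611 calls, the lowest number of the 4 fits without 1 library, and none of the genes called in the full fit changed direction in any of those fits.

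**Figure D1:**
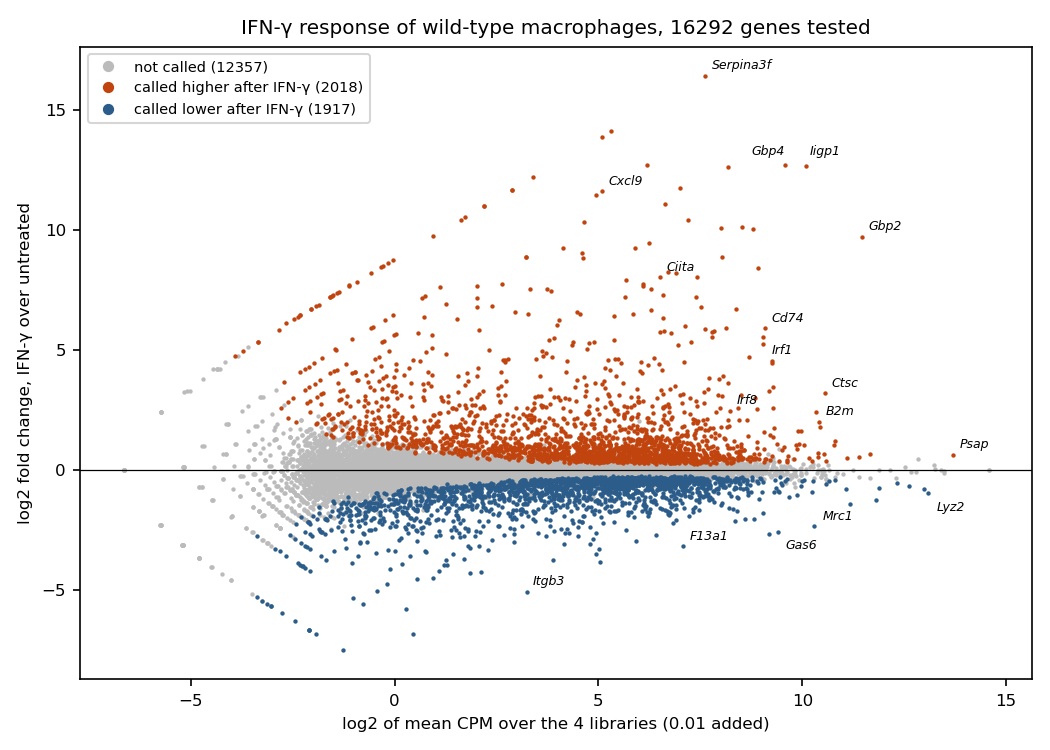
Log2 fold change of each of the 16292 genes tested (IFN-γ over untreated, WT) against the log2 of its mean CPM over the 4 libraries, with 0.01 CPM added; orange points rose, blue points fell and grey points were not called. The increases reach far above 8-fold (3 on the vertical axis) while few decreases pass 8-fold; the highest points are genes with no or almost no count in untreated libraries, whose fitted value depends on the prior count.

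Many of the genes that rose at least 8-fold had low untreated levels. Of the 293 genes that rose at least 8-fold, 196 (66.9%) had an untreated mean under 1 CPM and 29 (9.9%) one of at least 10 CPM. Among the 69 that fell at least 8-fold, 62 (89.9%) had a mean under 1 CPM after IFN-γ. There were 42 genes with at most 3 counts summed over both untreated libraries and at least 1 CPM in both IFN-γ libraries, and 5 in the reverse state.

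**Figure D2:**
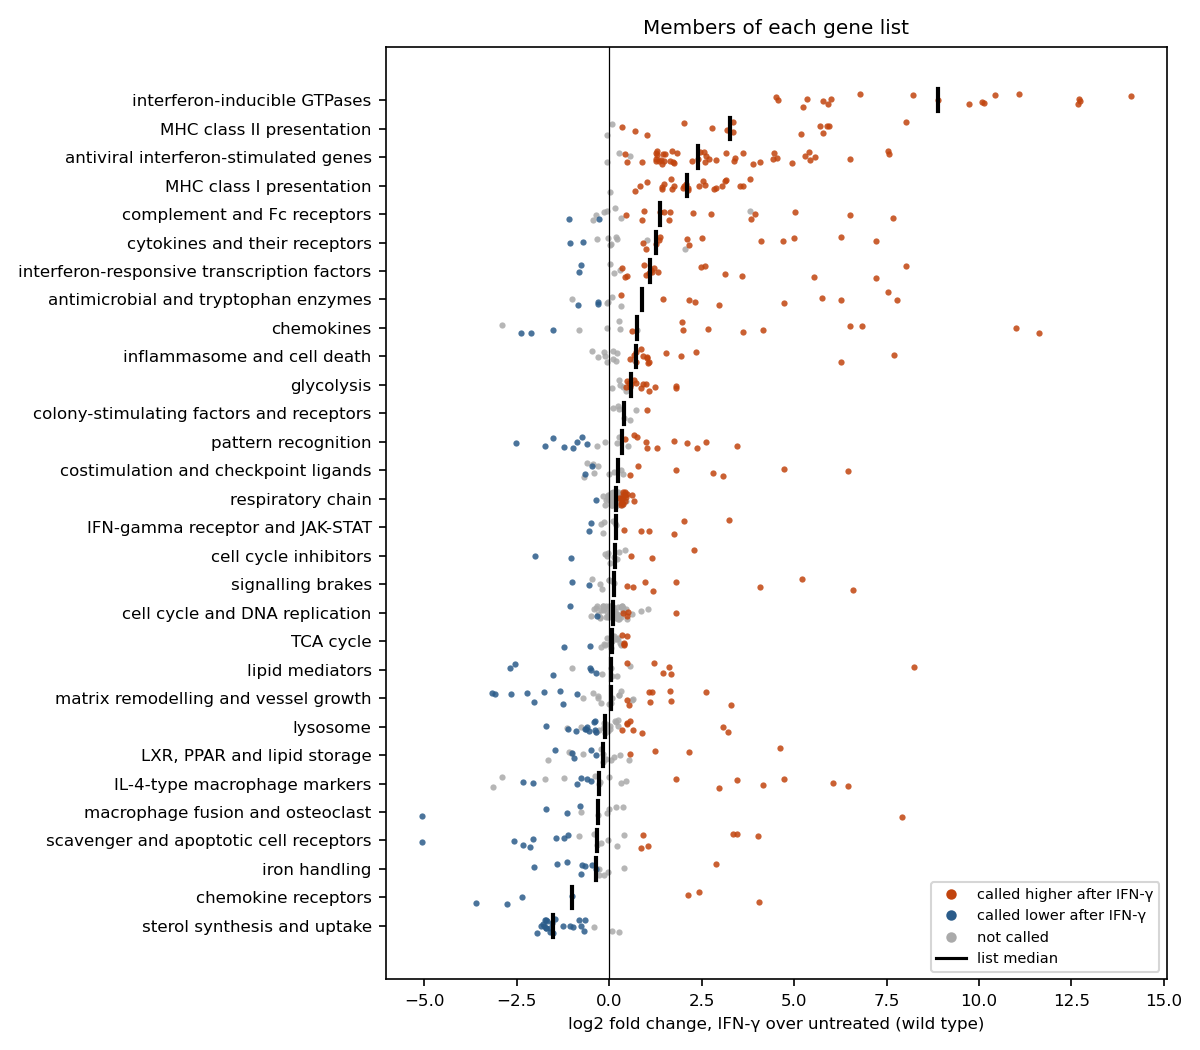
Log2 fold change (IFN-γ over untreated, WT) of every tested member of 30 gene lists, ordered by list median (black line); orange members rose, blue members fell and grey members were not called. The interferon-inducible GTPases stand at the top with a median of 8.89 and sterol synthesis and uptake at the bottom with a median of -1.53.

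The components that carry the signal moved unevenly. Of 14 genes of the IFN-γ receptor and JAK-STAT list, 6 rose, 2 fell and 6 did not pass the test, with a median of 0.17. For this list and those below, the shares over all genes tested are 12.4% higher and 11.8% lower. Stat2 had 164 and 154 CPM in the IFN-γ libraries, against 39.98 and 38.5 CPM in the untreated libraries. The groups did not overlap and Stat2 rose by 2.02 ± 0.12 on the log2 scale (SE; adjusted p = 1.5e-07). Stat3 rose by 1.76 and Jak2 by 1.08. The receptor chains were not called: Ifngr1 had 72.9 and 76.9 CPM in the IFN-γ libraries, against 88.2 and 87.3 CPM in the untreated libraries, and Ifngr2 had 77.4 and 80.02 CPM in the IFN-γ libraries, against 83.7 and 90.9 CPM in the untreated libraries, with adjusted p-values of 0.28 and 0.30. Jak1 had 308 and 277 CPM in the IFN-γ libraries, against 291 and 259 CPM in the untreated libraries (adjusted p = 0.63). The type I interferon receptor chain Ifnar1 fell by 0.50.

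Of 17 signalling brakes, 8 rose, 2 fell and 7 were not called, with a median log2 fold change of 0.12. Socs1, which blocks JAK kinases, had 30.8 and 56.5 CPM in the IFN-γ libraries, against 0.28 and 0.614 CPM in the untreated libraries. Socs3, a related inhibitor best known for its action on IL-6 family signalling, had 30.4 and 48.9 CPM in the IFN-γ libraries, against 0.664 and 1.47 CPM in the untreated libraries. Library 2 was the higher in both groups for both genes, and the groups did not overlap. The log2 increases were 6.59 ± 0.54 for Socs1 and 5.21 ± 0.31 for Socs3; without untreated library 2 they were 7.26 and 5.88. Usp18, which restrains signalling from the type I interferon receptor, rose by 4.08 ± 0.14 (adjusted p = 1.3e-09). Socs6 fell by 1.0 and Socs5 by 0.56.

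Transcription factors of the interferon response mostly rose: of 22 tested, 17 were higher, 2 were lower and 3 were not called, with a median of 1.10. Irf1 (ENSMUSG00000018899.16, chr11:53770014-53778374 on GRCm38) had 1023 and 1035 CPM in the IFN-γ libraries, against 22.1 and 22.3 CPM in the untreated libraries. The replicates lay close together in both groups, and the increase was 5.54 ± 0.24 on the log2 scale (adjusted p = 1.4e-08). Irf8 (ENSMUSG00000041515.9, chr8:120736358-120756694), the factor named in the title of the series and required for the monocyte and dendritic cell lineages, had 513 and 502 CPM in the IFN-γ libraries, against 90.9 and 91.2 CPM in the untreated libraries. The groups did not overlap and Irf8 rose by 2.48 ± 0.12 (adjusted p = 2.1e-08). Ciita, the master activator of MHC class II genes, had 193 and 172 CPM in the IFN-γ libraries, against 0.629 and 0.75 CPM in the untreated libraries, a log2 increase of 8.04 ± 0.22. Batf2, a basic leucine zipper factor of activated macrophages, had 95.4 and 105 CPM in the IFN-γ libraries, against 0.699 and 0.648 CPM in the untreated libraries and rose by 7.21. Irf7, the factor of type I interferon induction, rose by 3.60, Nlrc5, the activator of MHC class I genes, by 3.13 and Batf3 by 2.58. Myc and Atf3 were not called (adjusted p = 0.57 and 0.67).

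The interferon-inducible GTPases had the highest median of the lists. All 19 tested rose, with a median log2 increase of 8.89 that was the same when Gbp11, which had no untreated count, was set to its lower bound. The smallest increase was 4.51 ± 0.20, of Irgm2. Gbp2 (ENSMUSG00000028270.12, chr3:142620602-142638008) had 5522 and 5727 CPM in the IFN-γ libraries, against 6.71 and 6.52 CPM in the untreated libraries, a log2 increase of 9.73 ± 0.38 (adjusted p = 1.3e-08). Iigp1, also called Irga6, had 2115 and 2243 CPM in the IFN-γ libraries, against 0.28 and 0.375 CPM in the untreated libraries, a log2 increase of 12.68 ± 0.24. Gbp4 had 1569.6 and 1468 CPM in the IFN-γ libraries, against 0.105 and 0.341 CPM in the untreated libraries. Its log2 increase was 12.70 ± 0.29, and was 12.10 without untreated library 1 and 13.76 without untreated library 2. Gbp2b (also called Gbp1) had 125 and 168 CPM after IFN-γ and 1 count in the untreated libraries together, a ratio of 8149 with a 95% exact counting interval of 1462 to 321909. Gbp11 had 81.1 and 76.9 CPM after IFN-γ and no untreated count, which puts it at least 1447-fold higher. Among the immunity-related GTPases, Tgtp2 had 675 and 799 CPM in the IFN-γ libraries, against 0.664 and 0.648 CPM in the untreated libraries. Irgm1, which directs the effector members of the family, had 1001 and 1039 CPM in the IFN-γ libraries, against 27.2 and 26.7 CPM in the untreated libraries. Igtp (Irgm3) rose by 5.77 ± 0.12. Gvin1, a very large inducible GTPase, had 1170.1 and 1179 CPM in the IFN-γ libraries, against 54.7 and 44.7 CPM in the untreated libraries and rose by 4.56 ± 0.21. In the annotation, exons of Gbp4 overlap those of Gbp8 and Gbp9, Gbp6 and Gbp10 overlap a fused model, and Igtp overlaps Irgm2. Tgtp1 and Tgtp2 are close copies, so how their reads were divided is uncertain.

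**Figure D3:**
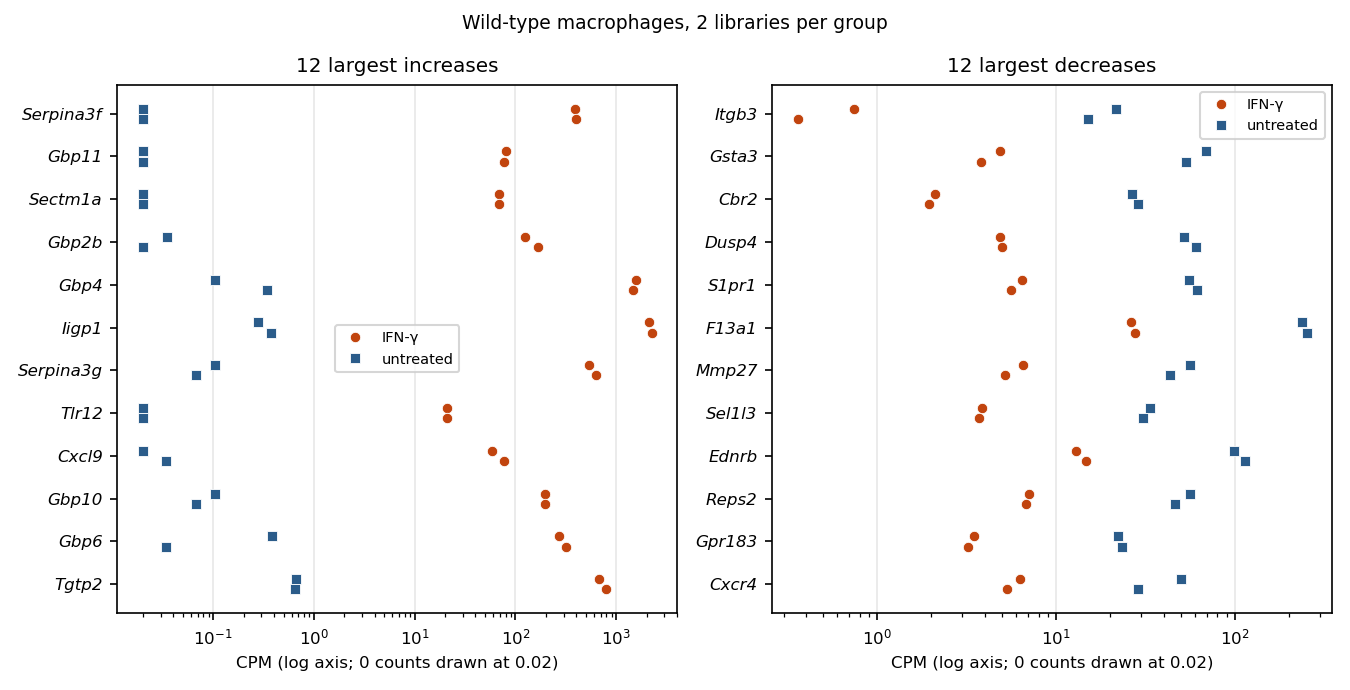
CPM in each library (log axis, 0 counts drawn at 0.02) for the 12 largest increases and 12 largest decreases among called genes with a mean of at least 8 CPM; orange circles are the 2 IFN-γ libraries and blue squares the 2 untreated libraries. The groups are separate for every gene, by 3 or more powers of 10 for the top increases and by less than 2 powers of 10 for the decreases.

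The stretches below lie upstream of the RefSeq gene start on GRCm38.p6 and show where GAS (TTCNNNGAA) and ISRE (TTTC and TTTC set 2 bases apart, or GAAA and GAAA on the other strand) letters stand in the promoters of genes that rose strongly; capitals mark the matches. The first 4 come from the 12 largest increases and are shown because their windows hold a match. Of those 12, Iigp1, Gbp4, Gbp6, Gbp10, Gbp11 and Sectm1a had no window, and Cxcl9 and Tlr12 had no match. The other stretches were added after their values were seen. All are examples and do not measure how common the letters are.
Tgtp2, chr11:49064258-49064308, minus strand: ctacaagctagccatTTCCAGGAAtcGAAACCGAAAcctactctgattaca
Serpina3f, chr12:104214408-104214446, plus strand: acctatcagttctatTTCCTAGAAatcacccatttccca
Serpina3g, chr12:104236099-104236137, plus strand: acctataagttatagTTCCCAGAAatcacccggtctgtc
Gbp2b, chr3:142594695-142594734, plus strand: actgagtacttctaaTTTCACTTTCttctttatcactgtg
Gbp2, chr3:142620589-142620628, plus strand: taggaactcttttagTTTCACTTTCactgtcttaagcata
Tgtp1, chr11:48992299-48992349, minus strand: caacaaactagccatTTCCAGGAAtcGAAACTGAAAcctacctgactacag
Igtp, chr11:58199496-58199546, plus strand: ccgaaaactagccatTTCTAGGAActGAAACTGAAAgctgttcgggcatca
Irgm2, chr11:58214887-58214937, plus strand: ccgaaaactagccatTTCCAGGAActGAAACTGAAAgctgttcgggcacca
Irf1, chr11:53769909-53769947, plus strand: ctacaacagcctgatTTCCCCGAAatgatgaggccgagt
Irf8, chr8:120736172-120736228, plus strand: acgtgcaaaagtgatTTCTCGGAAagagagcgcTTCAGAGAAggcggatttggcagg
Isg15, chr4:156200860-156200911, minus strand: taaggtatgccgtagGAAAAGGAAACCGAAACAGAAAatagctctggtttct

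In Tgtp2, Tgtp1, Igtp and Irgm2 the GAS letters are followed, after 2 bases, by the ISRE letters. This arrangement, noticed after the sequences were seen, stood in 5 of 26974 RefSeq promoter windows (0.0185%). The 5 genes were these 4 and Gm12185, whose exons overlap Tgtp1, and all 5 rose at least 8-fold; as related genes they are not independent examples. The GAS and ISRE letters began 81 and 70 bases before the gene start in Tgtp2 and 45 and 34 bases before it in Igtp. In Irf1 the GAS letters began 90 bases before the start, in Irf8, which holds 2 GAS matches, 171 and 153 bases before it, and in Isg15 3 ISRE matches overlapped. Windows reached from 250 bases before the start to 50 after it, and both strands were read. GAS letters stood in 8.37% of the 9803 tested genes with a window, in 10.3% of those that rose, in 16.5% of those that rose at least 8-fold and in 6.61% of those that fell. ISRE letters stood in 4.05% of tested genes, 9.84% of those that rose, 27.1% of those that rose at least 8-fold and 3.49% of those that fell. Of the 293 genes that rose at least 8-fold, 170 had a window, related GTPase genes among them. Of the genes that fell at least 8-fold, 44 had a window. GAS letters stood in 4 of these 44 (9.09%) and ISRE letters also in 4, with a 95% Wilson interval of 3.59% to 21.2% for each. Among the 11 interferon-inducible GTPases with a window, 6 (54.55%) held GAS letters and 10 (90.91%) held ISRE letters. Over all 26974 windows the shares were 9.55% for GAS and 3.99% for ISRE. The windows of Cxcl9 and Tlr12 held neither.

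**Figure D4:**
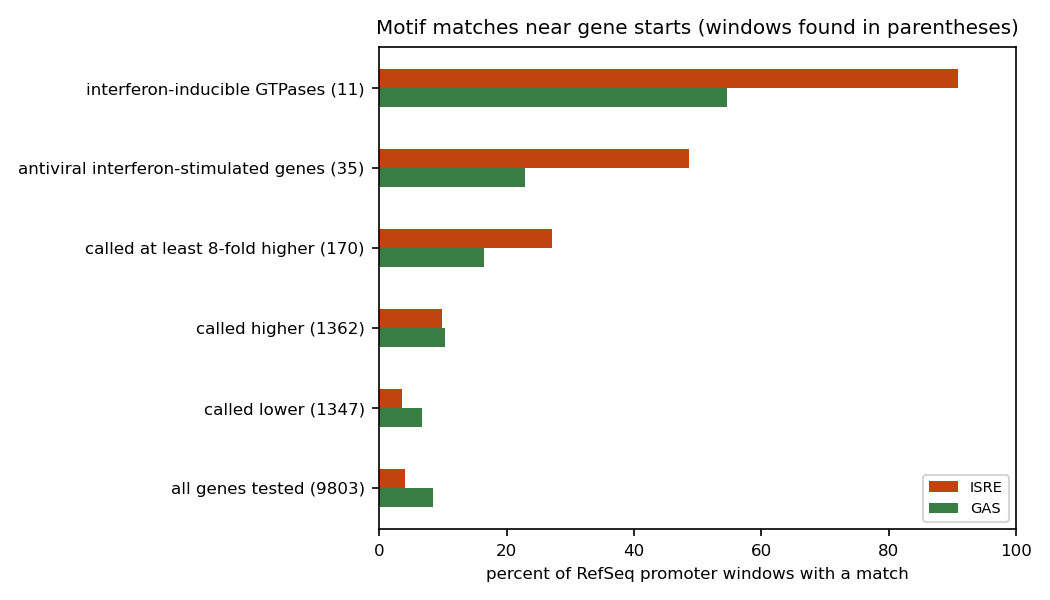
Percent of RefSeq promoter windows (250 bases before to 50 after the gene start) that hold GAS (green) or ISRE (orange) letters, by gene set, with the number of windows in parentheses. ISRE letters stand in 90.91% of the GTPase windows, 27.1% of the windows of genes that rose at least 8-fold and 4.05% of all tested genes.

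Genes that rose at least 8-fold often lay near one another. Of the 293, 132 (45.05%) had another such gene within 100000 bases, against 869 of 16218 tested genes with a position (5.36%). This count takes overlapping gene models and near-identical copies that may share reads as neighbours, and it was not repeated without them. For the genes that fell at least 8-fold the same count was 5 of 69 (7.25%), against 249 of 16218 (1.54%). Besides the GTPase clusters, the Serpina3 serine protease inhibitors were such a group. Serpina3f (ENSMUSG00000066363.12, chr12:104214544-104221129) had 389.7 and 399 CPM after IFN-γ and no untreated count, at least 7243-fold higher. Serpina3g had 541 and 626 CPM in the IFN-γ libraries, against 0.105 and 0.0682 CPM in the untreated libraries, a log2 increase of 12.65 ± 0.35. The Serpina3 genes are near-identical tandem copies, so their separate counts are uncertain. Other genes with no untreated count were Sectm1a, a secreted and transmembrane protein, with 67.96 and 67.9 CPM after IFN-γ (at least 1247-fold higher) and Tlr12, a receptor for the profilin of Toxoplasma, with 21.1 and 20.98 CPM (at least 386-fold higher). Of the 5 genes in the reverse state, Ppbp, a platelet chemokine, had 0 and 0.072 CPM in the IFN-γ libraries, against 1.71 and 3.04 CPM in the untreated libraries, and Mamdc2 had 0 and 0.036 CPM in the IFN-γ libraries, against 3.77 and 1.603 CPM in the untreated libraries.

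Antigen presentation rose nearly as a whole. Of 26 MHC class I presentation genes, 25 rose, none fell and 1 was not called, with a median of 2.10. Tap1, a subunit of the peptide transporter into the endoplasmic reticulum, had 494 and 430.5 CPM in the IFN-γ libraries, against 35.2 and 31.2 CPM in the untreated libraries, a log2 increase of 3.80 ± 0.12. The immunoproteasome subunits Psmb9 and Psmb8 rose by 3.06 ± 0.12 and 2.59 ± 0.09. B2m, the invariant light chain, had 2020.0 and 2365 CPM in the IFN-γ libraries, against 553 and 534 CPM in the untreated libraries, one of the 6 largest gains in CPM. The heavy chain H2-K1 had 937 and 1028 CPM in the IFN-γ libraries, against 277 and 303 CPM in the untreated libraries and rose by 1.76 ± 0.14, though reads of the H2 genes may be shared among close copies. Canx, a general chaperone of the endoplasmic reticulum, was not called (926 and 1072 CPM in the IFN-γ libraries, against 961 and 998 CPM in the untreated libraries).

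MHC class II genes rose too. Of 16 tested, 14 rose, none fell and 2 were not called, with a median of 3.26. Cd74, the invariant chain, had 1109.9 and 1046 CPM in the IFN-γ libraries, against 18.1 and 17.3 CPM in the untreated libraries, and rose by 5.93 ± 0.14 (adjusted p = 1.2e-10). H2-Ab1 had 191 and 236 CPM in the IFN-γ libraries, against 4.05 and 4.13 CPM in the untreated libraries, H2-Aa rose by 5.88 and H2-Eb1 by 5.79. H2-DMb1, which loads peptide, rose by 3.18. The 2 members not called were the regulatory factor X subunits Rfxap (5.63 and 7.59 CPM in the IFN-γ libraries, against 6.05 and 6.45 CPM in the untreated libraries) and Rfxank, which act on class II promoters with CIITA.

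Genes known from the antiviral interferon response rose without exception among those called: of 47, 44 rose, none fell and 3 were not called, with a median of 2.40. Zbp1, a sensor of Z-form nucleic acid, had 168 and 145 CPM in the IFN-γ libraries, against 0.804 and 0.853 CPM in the untreated libraries, a log2 increase of 7.55 ± 0.48. Mx1 rose by 6.52, Ifit2 by 5.56 ± 0.17 and Ifit1 by 5.28. Isg15, the ubiquitin-like modifier, had 32.5 and 38.9 CPM in the IFN-γ libraries, against 1.47 and 1.603 CPM in the untreated libraries and rose by 4.54 ± 0.15. Rnf213, a large E3 ubiquitin ligase, had 2283 and 2091 CPM in the IFN-γ libraries, against 449 and 379.8 CPM in the untreated libraries. Ifitm2 and Trim25 were not called (adjusted p = 0.83 and 0.14).

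The enzymes of microbe killing and of amino acid depletion split. Of 18 tested, 10 rose, 3 fell and 5 were not called, with a median of 0.88. Nos2, the inducible nitric oxide synthase, had 13.6 and 11.01 CPM in the IFN-γ libraries and 3 counts in the untreated libraries together, a ratio of 224 with a 95% exact counting interval of 76.3 to 1090. Acod1, which makes itaconate, had 422 and 447 CPM in the IFN-γ libraries, against 8.25 and 7.81 CPM in the untreated libraries and rose by 5.76 ± 0.16. Arg1, arginase, had 26.1 and 29.7 CPM in the IFN-γ libraries, against 0.734 and 1.36 CPM in the untreated libraries and rose by 4.72 ± 0.60 (adjusted p = 4.8e-04). The arginine transporter Slc7a2 rose by 2.96 ± 0.14 and Ass1, which regenerates arginine from citrulline, by 2.16 ± 0.17. The tryptophan-degrading enzyme Ido1 had 1.33 and 1.98 CPM after IFN-γ and 1 count in the untreated libraries together, a ratio of 92.3 with an interval of 16.1 to 3685. Kynu of the same route had 19.9 and 20.2 CPM in the IFN-γ libraries, against 0.105 and 0.102 CPM in the untreated libraries. Gch1, the first enzyme in making the nitric oxide synthase cofactor tetrahydrobiopterin, fell: it had 9.03 and 10.1 CPM in the IFN-γ libraries, against 15.8 and 18.3 CPM in the untreated libraries, a change of -0.83 ± 0.13 (adjusted p = 5.9e-04). Of the NADPH oxidase, Cybb rose by 1.44 ± 0.28, while Ncf1 was not called (adjusted p = 0.66).

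Chemokines moved both ways. Of 19 tested, 10 rose, 3 fell and 6 were not called. Cxcl9, a ligand of CXCR3, had 58.3 and 77.5 CPM after IFN-γ and 1 count in the untreated libraries together, a ratio of 3777 with an interval of 677 to 149227. Cxcl10, a second CXCR3 ligand, had 36.9 and 55.8 CPM in the IFN-γ libraries, against 0.594 and 0.409 CPM in the untreated libraries and rose by 6.52 ± 0.29. Ccl8 had 7.83 and 10.5 CPM and no untreated count (at least 170-fold higher). Ccl5 rose by 3.60 ± 0.39. Ccl9 fell: it had 116 and 127 CPM in the IFN-γ libraries, against 532 and 526 CPM in the untreated libraries, a change of -2.12 ± 0.12. Ccl2 was not called, with 262 and 432 CPM in the IFN-γ libraries, against 214 and 356 CPM in the untreated libraries; library 2 was the higher in both groups.

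Of 7 chemokine receptors tested, 3 rose and 4 fell. Ccr2, the receptor of inflammatory monocytes, had 75.5 and 101 CPM in the IFN-γ libraries, against 16.9 and 15.7 CPM in the untreated libraries (log2 increase 2.43 ± 0.20), and Ccr1 rose by 2.14 ± 0.15. As in every gene called, the groups did not overlap. In the other direction Cxcr4, the receptor that holds cells in marrow, had 6.34 and 5.33 CPM in the IFN-γ libraries, against 50.04 and 28.7 CPM in the untreated libraries, a change of -2.76 ± 0.40. Cx3cr1, the fractalkine receptor of patrolling monocytes, had 0.166 and 0.216 CPM in the IFN-γ libraries, against 2.06 and 2.69 CPM in the untreated libraries, a change of -3.60 ± 0.36. Cytokines and their receptors mostly rose, with 13 of 23 higher, 2 lower and 8 not called. Il12rb1, a chain of the IL-12 and IL-23 receptors, had 352 and 315 CPM in the IFN-γ libraries, against 2.06 and 2.46 CPM in the untreated libraries and rose by 7.20 ± 0.15 (adjusted p = 3.0e-11). Il27 had 8.08 and 11.05 CPM in the IFN-γ libraries, against 0.315 and 0.273 CPM in the untreated libraries, Il18bp, a decoy for IL-18, rose by 4.69 and the death ligand Tnfsf10 by 6.27. Tnf had 48.7 and 155 CPM in the IFN-γ libraries, against 9.19 and 40.3 CPM in the untreated libraries, with library 2 the higher in both groups, and was not called (log2 fold change 2.04 ± 0.81, adjusted p = 0.12). Its log2 fold change was 3.46 without untreated library 2 (adjusted p = 0.044), 1.34 without untreated library 1 (0.355), 2.64 without IFN-γ library 1 (0.064) and 0.98 without IFN-γ library 2 (0.489). Il1b stayed near the limit of detection, with 0.248 and 0.252 CPM in the IFN-γ libraries, against 0.0349 and 0.205 CPM in the untreated libraries. Il6, Il12a and Il23a had no count in any of the 4 libraries.

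Of 18 costimulatory and checkpoint ligands, 7 rose, 2 fell and 9 were not called. Cd274, which encodes PD-L1, had 867 and 737 CPM in the IFN-γ libraries, against 32.8 and 28.01 CPM in the untreated libraries, a log2 increase of 4.72 ± 0.28. Cd86 rose by 3.08 ± 0.20, Icam1 by 2.80 ± 0.13 and Cd40 by 1.8 ± 0.14. Cd48 fell by 0.66. Of 23 complement and Fc receptor genes, 14 rose, 2 fell and 7 were not called. The activating antibody receptors Fcgr1 and Fcgr4 rose. Fcgr1 had 360.4 and 422 CPM in the IFN-γ libraries, against 26.1 and 28.7 CPM in the untreated libraries. Fcgr4 had 472 and 522 CPM in the IFN-γ libraries, against 32.9 and 31.9 CPM in the untreated libraries. The inhibitory receptor Fcgr2b fell: it had 131 and 115 CPM in the IFN-γ libraries, against 269.6 and 253 CPM in the untreated libraries, a change of -1.09 ± 0.12. C3 rose by 2.76 ± 0.12, C1qb by 1.65 ± 0.22 and C4b by 6.50 ± 0.39; without untreated library 1 the change of C4b was 5.79, and 8.0 without untreated library 2.

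Sensors of microbes were divided, with 11 of 24 higher, 8 lower and 5 not called. Tlr9, a sensor of unmethylated DNA, had 48.2 and 30.6 CPM in the IFN-γ libraries, against 4.19 and 3.002 CPM in the untreated libraries, a log2 increase of 3.45 ± 0.29. Nod1 rose by 2.62 ± 0.16 and Tmem173, which encodes STING, by 2.37 ± 0.13. Several surface receptors for bacterial and fungal products fell. Cd14, the lipopolysaccharide co-receptor, had 14.3 and 15.98 CPM in the IFN-γ libraries, against 88.8 and 84.9 CPM in the untreated libraries, a change of -2.52 ± 0.13. Clec4e (Mincle) had 17.7 and 22.9 CPM in the IFN-γ libraries, against 55.7 and 60.9 CPM in the untreated libraries, a change of -1.52 ± 0.23, Clec4d fell by 1.73 and Tlr2 by 0.98. Of 25 inflammasome and cell death genes, 15 rose and none fell. Casp12 had 6.75 and 9.28 CPM after IFN-γ and 2 counts in the untreated libraries together, a ratio of 223 with an interval of 61.4 to 1849. Casp4 rose by 2.33 ± 0.18, Mlkl, which forms the pore of necroptosis, by 1.95 ± 0.10 and Casp1 by 1.53 ± 0.14. Gsdmd rose by 0.86 and Nlrp3 by 0.73, while Ripk1 was not called (adjusted p = 0.31).

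Among called genes with a mean of at least 8 CPM, the largest decrease was that of Itgb3, the integrin β3 chain, with 0.745 and 0.36 CPM in the IFN-γ libraries, against 21.6 and 15.1 CPM in the untreated libraries. Its log2 change was -5.07 ± 0.25 (adjusted p = 3.2e-08), and -5.66 without IFN-γ library 1. Gsta3, a glutathione transferase, had 4.85 and 3.81 CPM in the IFN-γ libraries, against 69.2 and 53.5 CPM in the untreated libraries. Cbr2, a carbonyl reductase of resident macrophages, had 2.11 and 1.94 CPM in the IFN-γ libraries, against 26.7 and 28.6 CPM in the untreated libraries. S1pr1, the receptor by which cells follow sphingosine-1-phosphate, had 6.46 and 5.61 CPM in the IFN-γ libraries, against 55.5 and 61.9 CPM in the untreated libraries, and Gpr183, which senses oxysterols, 3.48 and 3.24 CPM in the IFN-γ libraries, against 22.3 and 23.5 CPM in the untreated libraries. F13a1, coagulation factor XIII, had 26.3 and 27.6 CPM in the IFN-γ libraries, against 236 and 252 CPM in the untreated libraries, a change of -3.18 ± 0.12. Dusp4, a MAP kinase phosphatase, fell by 3.51 and Ednrb, the endothelin B receptor, by 2.95. The largest loss in CPM among the named genes was that of Lyz2, lysozyme, with 6039 and 5845 CPM in the IFN-γ libraries, against 11858 and 10956 CPM in the untreated libraries, a change of -0.94 ± 0.12; reads may be shared with Lyz1.

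Scavenger receptors and bridges to dying cells were divided, with 8 of 21 lower, 6 higher and 7 not called. Mrc1, the mannose receptor, had 432 and 400.2 CPM in the IFN-γ libraries, against 2119.6 and 2052 CPM in the untreated libraries, a change of -2.33 ± 0.09. Gas6, the ligand of the receptors AXL and MERTK, had 216 and 169 CPM in the IFN-γ libraries, against 1196 and 1108 CPM in the untreated libraries, a change of -2.58 ± 0.12. The receptor Axl moved the other way, with 164 and 171 CPM in the IFN-γ libraries, against 16.1 and 16.6 CPM in the untreated libraries and an increase of 3.36 ± 0.16. Stab1 had 1429 and 1057 CPM in the IFN-γ libraries, against 3486 and 3202 CPM in the untreated libraries, and the haemoglobin receptor Cd163 fell by 2.07. Tgm2, a transglutaminase, had 1182 and 1106 CPM in the IFN-γ libraries, against 110.1 and 98.5 CPM in the untreated libraries and rose by 3.46 ± 0.14. Cd36 and Lrp1 were not called (adjusted p = 0.31 and 0.16).

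Sterol synthesis and uptake gave the most uniform decrease. Of 24 genes tested, 21 fell, none rose and 3 were not called, with a median of -1.53. Hmgcs1, an early enzyme of the mevalonate route, had 71.3 and 75.6 CPM in the IFN-γ libraries, against 227 and 270.1 CPM in the untreated libraries, a change of -1.76 ± 0.10 (adjusted p = 1.4e-07). Cyp51 had 54.2 and 58.4 CPM in the IFN-γ libraries, against 153 and 174 CPM in the untreated libraries, Msmo1 55.5 and 65.02 CPM in the IFN-γ libraries, against 161 and 173 CPM in the untreated libraries, and Insig1, which holds sterol regulatory proteins in the endoplasmic reticulum, 74.7 and 83.2 CPM in the IFN-γ libraries, against 216 and 265 CPM in the untreated libraries. The groups did not overlap in any of the 4, as in every gene called. Sqle and Idi1 fell by 1.71 and 1.8. Srebf2, the transcription factor of the route, was not called (115 and 87.4 CPM in the IFN-γ libraries, against 135 and 134 CPM in the untreated libraries; adjusted p = 0.14). Of 21 genes of LXR, PPAR and lipid storage, 4 rose, 5 fell and 12 were not called, against 12.4% higher and 11.8% lower over all genes tested. The cholesterol exporter Abcg1 rose by 2.16 ± 0.31 and lipoprotein lipase Lpl by 1.23 ± 0.16. Apoe was not called (775 and 601 CPM in the IFN-γ libraries, against 1202 and 1065 CPM in the untreated libraries).

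Iron handling was lower in 8 of 15 genes, higher in 1 and not called in 6. Tfrc, the transferrin receptor, had 162 and 189 CPM in the IFN-γ libraries, against 709.9 and 736 CPM in the untreated libraries, a change of -2.04 ± 0.12. The ferritin chains Ftl1 and Fth1 fell by 0.78 and 0.66, though both have many processed copies, and the iron exporter Slc40a1 fell by 0.75. Matrix and vessel genes split, with 9 of 31 higher, 9 lower and 13 not called. Mmp12, macrophage elastase, had 162 and 155 CPM in the IFN-γ libraries, against 1195 and 816 CPM in the untreated libraries, a change of -2.67 ± 0.19, and the collagenase Mmp8 fell by 2.23. Igf1, insulin-like growth factor 1, had 148 and 159 CPM in the IFN-γ libraries, against 633 and 619 CPM in the untreated libraries, a change of -2.03 ± 0.11. Spp1, osteopontin, had 2076 and 2124 CPM in the IFN-γ libraries, against 5319.7 and 4772 CPM in the untreated libraries. Vegfa rose by 1.65 ± 0.24. Without IFN-γ library 2, 5 of the 31 were called higher.

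Of 19 glycolysis genes, 14 rose and none fell, with a median of 0.58. Hk3 had 2249 and 2022 CPM in the IFN-γ libraries, against 632 and 596 CPM in the untreated libraries, a log2 increase of 1.8 ± 0.10, and Pfkp had 392 and 414 CPM in the IFN-γ libraries, against 111 and 119 CPM in the untreated libraries. The lactate exporter Slc16a3 rose by 0.92 and Ldha by 0.58; Gapdh was not called (adjusted p = 0.13). Calls, whichever their direction, were about as frequent in the TCA cycle and respiratory chain lists as among all genes tested (24.2%). The split by direction was not the same. In each list more genes were called higher than lower, against 12.4% higher and 11.8% lower over all genes tested. The TCA cycle held 5 of 23 higher, 2 lower and 16 not called. The 2 lower were Idh1, the cytosolic isocitrate dehydrogenase, with 103 and 111 CPM in the IFN-γ libraries, against 249.9 and 246 CPM in the untreated libraries, and Idh2, which fell by 0.53. Of 68 respiratory chain genes 17 rose, 1 fell and 50 were not called, with a median of 0.18, but 2 were called higher without untreated library 1 and 4 without untreated library 2 or without IFN-γ library 2. The TCA cycle list had no gene called higher without untreated library 1, 1 without IFN-γ library 2 and 3 without untreated library 2.

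Of 59 cell cycle and replication genes, 4 rose, 2 fell and 53 were not called, a share of calls below the 24.2% of all genes. Mki67, the proliferation antigen, had 673 and 546 CPM in the IFN-γ libraries, against 1335 and 1206 CPM in the untreated libraries and fell by 1.06. Top2a had 696 and 753 CPM in the IFN-γ libraries, against 514 and 518 CPM in the untreated libraries and Ccnd1 855 and 914 CPM in the IFN-γ libraries, against 452 and 522 CPM in the untreated libraries, and neither was called (adjusted p = 0.075 and 0.22). Without either untreated library the list had no gene called higher, without either IFN-γ library it had 2, and without any one of the 4 libraries it had 1 called lower. In the lysosome list 8 of 38 rose, 11 fell and 19 were not called, and without untreated library 2 the number higher was 3, and 5 without any other of the 4. Ctsc, which activates serine proteases, had 2531 and 2915 CPM in the IFN-γ libraries, against 278 and 311 CPM in the untreated libraries and rose by 3.21 ± 0.15, and Ctsh had 478 and 457 CPM in the IFN-γ libraries, against 60.1 and 51.7 CPM in the untreated libraries. Ctsd and Ctsl fell by 0.54 and 0.67. Psap, the saposin precursor, showed the largest gain in CPM among the named genes, with 16312 and 16006 CPM in the IFN-γ libraries, against 10547 and 10216 CPM in the untreated libraries, and its adjusted p of 0.0078 was 0.063 without untreated library 2.

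Lipid mediator genes were divided, with 6 of 18 higher, 6 lower and 6 not called. Ptgs2, the inducible cyclooxygenase, had 141 and 273 CPM in the IFN-γ libraries, against 0.454 and 0.887 CPM in the untreated libraries, a log2 increase of 8.25 ± 0.50 (adjusted p = 7.8e-07). Tbxas1, thromboxane synthase, rose by 1.68 ± 0.14 and Pla2g4a, which releases arachidonic acid, by 1.62 ± 0.16. Alox5, 5-lipoxygenase, had 1.91 and 1.55 CPM in the IFN-γ libraries, against 11.7 and 10.6 CPM in the untreated libraries, a change of -2.70 ± 0.30, and Ltc4s, leukotriene C4 synthase, fell by 2.55 (-3.20 without IFN-γ library 1), while Lta4h was not called (adjusted p = 0.23). In the list of macrophage fusion and osteoclast genes, 4 of 11 fell and 1 rose. That one was Ocstamp, a membrane protein needed for cell fusion, with 105 and 97.9 CPM in the IFN-γ libraries, against 0.594 and 0.239 CPM in the untreated libraries; its log2 increase was 7.92 ± 0.23, and 8.70 without untreated library 1.

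Set directly against IL-4, the cytokine of the alternative activation state, IFN-γ gave different levels of 4562 genes (28%), 2310 higher (14.2%) and 2252 lower (13.8%). Irf8 averaged 508 ± 7.77 CPM after IFN-γ and 68.3 ± 3.69 CPM after IL-4 (SD, n = 2 each), a log2 difference of 2.89 (adjusted p = 6.9e-09). Among the largest differences in favour of IFN-γ, Iigp1 averaged 2179 ± 90.8 CPM after IFN-γ and 0.253 ± 0.119 CPM after IL-4, and Gbp4 averaged 1519 ± 71.99 CPM after IFN-γ and 0.0917 ± 0.0614 CPM after IL-4. The largest in favour of IL-4 were genes with no count in either IFN-γ library: Retnla, a secreted marker of alternative activation, averaged 253 ± 7.87 CPM after IL-4 and the sodium channel gene Scn3a 68.6 ± 12.7 CPM. All 19 interferon-inducible GTPases and 44 of the 47 antiviral genes were higher after IFN-γ than after IL-4. Of 23 IL-4-type markers, 22 were lower after IFN-γ than after IL-4 and 1 was higher; against untreated cells IFN-γ raised 7 of the same 23 and lowered 6. One that rose was Flt1, a VEGF receptor, with 31.4 and 31.1 CPM in the IFN-γ libraries, against 0.559 and 0.375 CPM in the untreated libraries. Arg1 averaged 27.9 ± 2.51 CPM after IFN-γ and 2661 ± 371 CPM after IL-4 (log2 difference -6.57, adjusted p = 2.8e-05), beside 1.05 ± 0.446 CPM untreated. Tfrc averaged 176 ± 19.00 CPM after IFN-γ and 2828 ± 105 CPM after IL-4, and Itgb3 averaged 0.553 ± 0.273 CPM after IFN-γ and 143 ± 5.23 CPM after IL-4. Ocstamp was higher after IFN-γ than after IL-4 (102 ± 5.19 CPM after IFN-γ, 9.72 ± 0.44 CPM after IL-4; log2 difference 3.38, adjusted p = 2.5e-08). Against the same untreated libraries IL-4 raised 1081 genes (6.64%) and lowered 911 (5.59%); since the 2 responses share these libraries, no overlap between them is given.

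The libraries labelled CKO allow the WT response to be compared with a second one that shares none of its samples. The labels do not name the deleted gene. Irf8 averaged 508 ± 7.77 CPM in WT and 1188 ± 21.8 CPM in CKO macrophages after IFN-γ, and 91.1 ± 0.228 CPM in WT and 270.2 ± 31.7 CPM in CKO macrophages untreated (SD, n = 2 each), so it was not lower in the libraries labelled CKO. Lyz2 averaged 5942 ± 137 CPM in WT and 14.1 ± 2.18 CPM in CKO macrophages after IFN-γ. Untreated CKO library 1 stood apart in its RNA shares, with 1.52% mitochondrial counts, against 2.12% to 3.25% in the other 11 libraries. IFN-γ changed 4333 genes (26.6%) in the libraries labelled CKO, 2396 higher (14.7%) and 1937 lower (11.9%). The WT response and the CKO response shared 1530 genes that rose, 75.8% of those that rose in WT and 63.9% of those that rose in CKO, and 1126 that fell, 58.7% of those that fell in WT and 58.1% of those that fell in CKO. The increase of Irf8 was 2.48 ± 0.12 in WT and 2.14 ± 0.12 in CKO, a difference of 0.34 ± 0.16 that was not called (adjusted p = 0.39).

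The test of the difference itself called 443 genes (2.72%): 106 with a more positive response in WT (0.651%) and 337 with a more negative one (2.07%). The number depended on single libraries: it was 189 without untreated WT library 1, 230 without untreated WT library 2, 269 and 226 without IFN-γ WT library 1 and 2, 168 and 137 without IFN-γ CKO library 1 and 2, and 374 and 940 without untreated CKO library 1 and 2. Among genes that fell in WT, 171 had a more negative change in WT than in CKO and 8 a less negative one. Among genes that rose in WT, 74 had a more positive change in WT than in CKO and 81 a less positive one. Both sets were picked by their WT change, which is also part of the difference. That choice favours larger changes in WT, so the splits are not read further. Myh10, a non-muscle myosin heavy chain, averaged 55.96 ± 0.895 CPM after IFN-γ and 4.55 ± 0.264 CPM untreated in WT, and 6.902 ± 0.614 CPM after IFN-γ and 4.35 ± 0.993 CPM untreated in CKO, a difference of 2.96 ± 0.21 log2 units (adjusted p = 1.3e-04). Ocstamp averaged 102 ± 5.19 CPM after IFN-γ in WT and 11 ± 0.517 CPM in CKO (difference 3.80 ± 0.39, and 4.57 without untreated WT library 1). Clec9a, a receptor for dead cells best known from dendritic cells, had 43.7 and 52.7 CPM in the IFN-γ libraries, against 0.105 and 0.0682 CPM in the untreated libraries in WT, and 5.99 ± 0.686 CPM after IFN-γ in CKO (difference 4.48 ± 0.72); its exons overlap those of Clec1b. Of the 7 dendritic cell markers tested, Clec9a, Batf3 and Xcr1 rose in WT (Xcr1 at an adjusted p of 0.171 without untreated library 2), while Flt3 had 0.29 and 0.18 CPM in the IFN-γ libraries, against 0.28 and 0.102 CPM in the untreated libraries. None of the 7 was called lower, though the lowest log2 change among them was -3.03. The markers' sum was 136 and 145 CPM in the IFN-γ libraries, against 86.4 and 83.2 CPM in the untreated libraries. Clec9a is itself in this sum and held most of that difference. The part of the other markers in the result for Clec9a was not tested. Ctsc rose by 3.21 in WT and 1.51 in CKO (difference 1.70 ± 0.19, adjusted p = 0.0010).

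In the other direction, Clec4e fell by 1.52 in WT and rose by 1.13 in CKO, a difference of -2.65 ± 0.32 (adjusted p = 0.0018). Pilra, an inhibitory receptor, averaged 7.19 ± 0.974 CPM after IFN-γ and 21.5 ± 1.32 CPM untreated in WT, and 45.1 ± 4.22 CPM after IFN-γ and 22.3 ± 1.31 CPM untreated in CKO (difference -2.60 ± 0.20). Ednrb fell by 2.95 in WT and had a change of -0.59 in CKO (difference -2.36 ± 0.18). The complement gene C1qb rose by 1.65 in WT and 3.98 in CKO, Acod1 by 5.76 in WT and 7.73 in CKO, and Cd40 by 1.8 in WT and 3.98 in CKO. Each gene named with a difference so far was also called in all 8 fits that left out 1 library of the 4 groups. Of the sterol genes, 5 of 24 differed, with the larger fall in WT, but Cyp51, Hmgcs1 and Msmo1 were called in 1, 2 and 3 of the 8 fits. The list median was -1.53 in WT and -0.73 in CKO. Of the 47 antiviral genes, 16 differed, among them Isg15, which rose by 4.54 in WT and 5.89 in CKO, and Ifit2, which rose by 5.56 in WT and 6.94 in CKO. Of the interferon-inducible GTPases, 5 of 19 differed, with Gbp8 rising more in WT (8.23 in WT, 5.62 in CKO) and Igtp less (5.77 in WT, 7.06 in CKO).

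**Figure D5:**
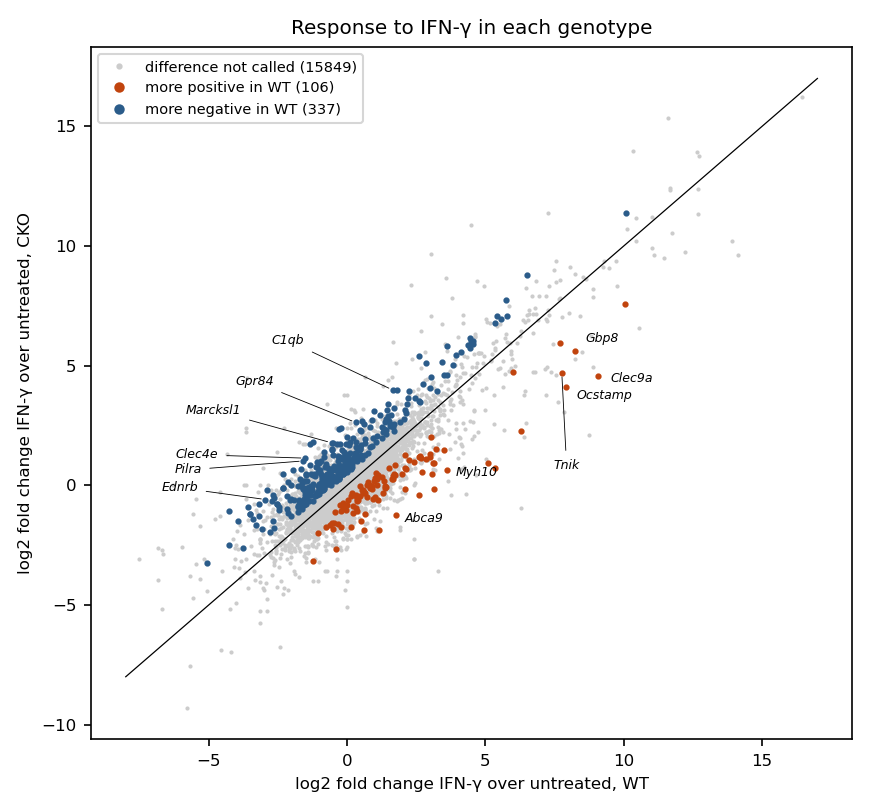
Log2 fold change of each tested gene after IFN-γ in WT (horizontal) and in the libraries labelled CKO (vertical), with the line of equality; orange points had a more positive and blue points a more negative response in WT at an adjusted p under 0.05. Most genes lie along the line, and the 337 blue points above it outnumber the 106 orange points below it.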

How the data were processed

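RNA from 12 libraries of bone marrow-derived macrophages was sequenced after an Illumina NextSeq RNA Exome preparation, per the labels' protocols. The submitters' processing notes name CASAVA 1.8.2, TopHat2 2.0.13, Picard 1.97, HTSeq 0.6.1 and the builds GRCh38 and mm10, with no role given; the sources used here give neither the annotation nor the strand setting. The authors deposited raw counts per gene, and no other column was used.

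Genes with low counts were removed (filterByExpr over 6 groups), libraries were scaled by TMM, and edgeR 4.0.16 (R 4.3.3) fitted 6 group means over all 12 libraries, with a robust quasi-likelihood F test and Benjamini-Hochberg adjustment over all 16292 genes; every adjusted p comes from this fit unless another is named. Standard errors are the log2 fold change divided by the square root of F, and are approximate. Replicates of every group differed beyond counting noise and were counted separately. Intervals and bounds (floor of 3 counts per group) cover counting error only. Gene coordinates come from the GRCm38 annotation and 48058 of the IDs matched it without their version. Promoter windows come from RefSeq for GRCm38.p6 and 9803 tested genes matched one by symbol and position.

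Lists and members were chosen with earlier results of these data known. Genes were named as the 12 largest increases and decreases with a mean of at least 8 CPM, the 6 largest gains and losses in CPM, genes silent in one group, the genes most different from CKO and IL-4, and from each list up to 4 called members with the smallest adjusted p, up to 2 called the other way and up to 2 not called. Others were named after their values were seen: Arg1, Ass1, Casp1, Ccl5, Ctsd, Ctsl, Cybb, Fcgr4, Gm12185, Gsdmd, Gvin1, H2-Aa, H2-Eb1, H2-K1, Idi1, Ido1, Ifit1, Ifngr1, Ifngr2, Il1b, Il6, Il12a, Il23a, Irf1, Irgm1, Irgm2, Kynu, Ldha, Mx1, Nlrp3, Slc40a1, Sqle, Tlr2, Tlr9, Vegfa and Zbp1. The alternatives were DESeq2 1.42.0, its size factors, other filters, a 2-fold limit, only the compared groups, a replicate block, leaving out technical RNAs and leaving out single libraries.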

Additional observations from a re-analysis of the deposited data

Results flagged for a closer look

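Of the genes named here, 47 were picked out because their IFN-γ response differed between WT macrophages and the libraries labelled CKO in edgeR's quasi-likelihood test of the difference (adjusted p under 0.05 over all genes). Values in parentheses are the WT log2 response minus the CKO log2 response, so that a negative value means a more negative change in WT.

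For 25 of them the difference was called in each of the 8 fits that left out 1 library of the 4 groups. A rise in WT with a more positive change there than in CKO was found for Clec9a (4.48), Ctsc (1.70), Gbp8 (2.61), Myh10 (2.96), Ocstamp (3.80) and Tbxas1 (1.41); that of Ocstamp was 4.57 without untreated WT library 1. A smaller rise in WT was found for Acod1 (-1.97), C1qb (-2.34), C3 (-1.48), Cd40 (-2.18), Fcgr1 (-1.18), Ifit2 (-1.38), Igtp (-1.28), Isg15 (-1.35) and Psmb8 (-0.93), which take in the interferon-stimulated genes Isg15 and Ifit2 and the complement genes C3 and C1qb. Genes lower after IFN-γ in WT whose change was more negative there than in CKO were Ccl9 (-0.97), Cd14 (-1.75), Clec4e (-2.65), Cx3cr1 (-2.69), Ednrb (-2.36), Gch1 (-1.21), Igf1 (-1.46), Pilra (-2.60), S1pr1 (-1.62) and Tlr2 (-1.61); among these Clec4e, Pilra, Gch1 and Tlr2 had a positive change in CKO. The largest adjusted p over these fits was 0.0486, for Ccl9.

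For the other 22 the call was lost in at least 1 of the 8 fits, with adjusted p-values up to 0.301, for Tgtp1, in the fit that weakened it most. These with a smaller rise in WT were Ass1 (-1.24), Casp1 (-0.96), Cxcl10 (-2.25), Gvin1 (-1.47), Irf7 (-0.99), Tgtp1 (-1.29) and Trim25 (-0.79). The genes with the more negative change in WT and a lower level after IFN-γ were Alox5 (-2.04), Cbr2 (-1.14), Clec4d (-0.88), Ctsl (-0.89), Cyp51 (-0.70), Dusp4 (-2.30), Gpr183 (-0.83), Hmgcs1 (-0.65), Itgb3 (-1.84), Mmp12 (-1.16), Msmo1 (-0.69), Spp1 (-1.25) and Tfrc (-0.75); that of Itgb3 was -2.44 without IFN-γ WT library 1. The more positive differences were those of Ccr2 (1.47) and Cd36 (0.85). Trim25 and Cd36 were not called in WT alone.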

How the results depend on the processing

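Of the 3935 genes called in the main comparison, none changed direction in the 12 alternatives to it that fitted them (2974 with a mean of at least 5 CPM required). The medians of the lipid mediator, matrix, macrophage marker and neutrophil marker lists, near 0 in the full fit, changed sign in at least 1 alternative, and that of chemokine receptors was 2.27 with a mean of at least 5 CPM required. Of 226 named genes called in the main comparison, 28 lost their call in at least 1 of the 12 alternatives. The other 198 kept it in every alternative that fitted them. Genes at low levels were not fitted in all 12, as with a mean of at least 5 CPM required. Leaving out 1 of its 4 libraries gave 2611 to 3121 calls in the main comparison, of which 2566 to 2882 were among the 3935, and leaving out untreated CKO library 1 gave 4578. Leaving out 1 library gave 137 to 940 calls of a difference between WT and CKO. It gave 3066 to 3977 calls against IL-4, 2675 to 5256 in the CKO response and 898 to 1072 in the IL-4 response. Where this left 1 library in a group, that library was assumed to vary like the others. DESeq2 gave 3753 calls in the main comparison and 664 of a WT and CKO difference. Requiring at least 2-fold gave 1752 calls in the main comparison, 265 of a WT and CKO difference, 2097 against IL-4, 1835 in the CKO response and 809 in the IL-4 response. With no filter the WT and CKO difference had 1019 calls, and with only the compared groups in the fit it had 289, the IL-4 response then having 3562. The cause of these shifts was not tested. With the library number as a replicate block, 4993 genes were called in the main comparison, including 3934 of the 3935, 1080 for the WT and CKO difference and 3023 in the IL-4 response. Tnf was then called (2.15, adjusted p = 8.72e-09). The labels do not say what the number marks: the deviations of same-numbered libraries correlated over genes at 0.100 to 0.431 between groups of the same genotype (0.431 for WT IFN-γ and untreated) and at -0.0055 to 0.256 between genotypes, a hint from the data and not from the design. Promoter windows that ended at the gene start held GAS letters in 7.304% and ISRE letters in 3.448% of tested genes, against 8.365% and 4.05% in the full window. With 2 libraries a group, depth limits mainly the genes near silence, whose ratios carry wide counting intervals.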
